A study of Rattus norvegicus with 30 samples.

Results

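The chaperone genes described here comprise 61 of the 14506 genes that the array names with a single symbol. They were chosen by symbol: every gene whose symbol starts with Dnaj, with Hspa, Hspb or Cct and a digit, or with Hsp90, Hspd1 or Hspe1, apart from Hspa2, Hspa4, Hspa4l, Hspa5, Hsp90b1, Dnajb9, Dnajb11 and Dnajc3. The 61 genes fell into 6 HSP70 genes, 2 HSP90 genes, 7 small heat shock protein genes, 8 genes of the cytosolic chaperonin, 2 of the mitochondrial chaperonin, and 4, 10 and 22 J-domain genes of classes A, B and C.

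RNA was measured in primary cultures of inner medullary collecting duct cells, the epithelium of the last part of the kidney tubule, grown from rat renal inner medulla. Each of 10 groups held 3 samples, with 1 array each. Cells of 3 groups were kept throughout at 300, 600 or 900 mosmol/kg (steady 300, steady 600 and steady 900 in what follows). In 4 groups cells kept at 300 were moved to 600 mosmol/kg for 3, 12, 24 or 48 h, and in 2 groups cells kept at 600 were moved to 900 mosmol/kg for 12 or 24 h. In the last group cells kept at 900 were returned to 300 mosmol/kg for 24 h. The treatment field of every sample, controls included, names 5 µM cyclosporin A, while no title names it. Whether every culture received the agent is not settled by the labels, and no group is labelled as free of it. The labels give neither strain, age nor sex of the rats, nor the solute used to set the osmolality.

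Chaperones bind proteins that are not fully folded and keep them from clumping. HSP70 proteins take up and release a client in a cycle driven by ATP. J-domain proteins deliver clients to HSP70 and start that cycle, and HSP90 acts on clients that are already partly folded. Small heat shock proteins hold unfolded clients without using ATP, while chaperonins are barrel-shaped complexes that enclose a client while it folds. Cells of the renal inner medulla live in a fluid whose salt and urea content rises and falls with the concentration of the urine, and heat shock proteins are among the proteins that this tissue is known to hold in quantity. Heat shock factor, which activates many of these genes, binds the heat shock element, a row of short units that alternate in direction.

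Promoter sequence was looked up in RefSeq for the GRCr8 assembly, and 49 of the 61 genes had a window there. The 250 bases before each start were searched on both strands for 3 alternating units of the heat shock element in a row (GAANNTTCNNGAA or TTCNNGAANNTTC) and for 2 such units (GAANNTTC or TTCNNGAA), so that each longer match also holds the shorter motif. The longer motif stood in 3 of the 49 windows, those of Hspa8, Hspd1 and Hspe1, or 6.12%, against 0.597% of 27457 genes' windows of the same length. The shorter motif stood in 15 of the 49 windows, or 30.6%, against 13.2%. Hspd1 and Hspe1 share the same row of elements, which is counted for both genes in these shares. Rows shared between windows were not merged among all genes either. The core TGGAAA of the tonicity-responsive element, searched on both strands, stood in 7 windows, or 14.3%, against 19.5% of all windows. The longer consensus of that element (TonE) stood in 4 of the 49, or 8.16%, against 5.16%, and the box CCAAT in 19, or 38.8%, against 34.3%. A match of these letters is a description of the window and not a measured binding site.

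The following windows are shown for the shared region of the chaperonin pair, for the longer motif and for small heat shock protein genes with unlike changes; they are not those of the members with the widest ranges. Hspd1 and Hspe1 lie head to head on chromosome 9, with 289 bases between their starts, and share 1 row of elements at chr9:64084262-64084279. It is given on the strand of each gene. The windows of Hspe1 (chr9:64084077-64084326, plus strand) and Hspa8 (chr8:50080264-50080513, plus strand) hold the longer motif. The windows of 3 small heat shock protein genes that moved differently from each other are those of Hspb1 (chr12:26432302-26432551, minus strand), Hspb6 (chr1:94934122-94934371, plus strand) and Hspb8 (chr12:45837058-45837307, plus strand). All run 5′ to 3′ toward the start, and capitals mark the heat shock element units, of 3 in a row for Hspa8 and of 2 or more in the others.
Shared row on the Hspe1 strand: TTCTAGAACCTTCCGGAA
Shared row on the Hspd1 strand: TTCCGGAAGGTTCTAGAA
Hspe1: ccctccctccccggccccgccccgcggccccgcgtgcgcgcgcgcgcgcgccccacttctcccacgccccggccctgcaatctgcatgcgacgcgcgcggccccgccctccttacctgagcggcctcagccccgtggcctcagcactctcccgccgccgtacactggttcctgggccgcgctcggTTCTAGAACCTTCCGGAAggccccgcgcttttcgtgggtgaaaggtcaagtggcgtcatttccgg
Hspa8: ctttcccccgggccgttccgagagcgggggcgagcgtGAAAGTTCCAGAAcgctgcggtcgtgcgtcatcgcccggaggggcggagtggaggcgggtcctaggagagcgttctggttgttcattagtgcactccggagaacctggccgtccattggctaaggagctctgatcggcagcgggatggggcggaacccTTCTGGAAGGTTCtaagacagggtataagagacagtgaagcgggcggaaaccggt
Hspb1: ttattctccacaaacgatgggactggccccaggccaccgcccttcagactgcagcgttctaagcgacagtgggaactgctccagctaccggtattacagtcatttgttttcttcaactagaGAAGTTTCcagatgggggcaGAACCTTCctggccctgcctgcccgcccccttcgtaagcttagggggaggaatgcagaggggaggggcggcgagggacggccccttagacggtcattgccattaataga
Hspb6: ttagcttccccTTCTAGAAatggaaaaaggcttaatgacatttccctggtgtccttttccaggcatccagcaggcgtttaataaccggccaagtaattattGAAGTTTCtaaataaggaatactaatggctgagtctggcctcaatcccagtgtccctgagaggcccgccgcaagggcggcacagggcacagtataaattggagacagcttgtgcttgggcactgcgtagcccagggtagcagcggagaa
Hspb8: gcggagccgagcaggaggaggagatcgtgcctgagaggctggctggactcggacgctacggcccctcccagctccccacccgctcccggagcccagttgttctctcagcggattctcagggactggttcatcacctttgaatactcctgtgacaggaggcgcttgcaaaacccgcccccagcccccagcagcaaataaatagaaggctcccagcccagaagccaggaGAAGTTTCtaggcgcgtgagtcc

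Levels are log2 values as deposited, changes are log2 differences ± standard error of a fit over all 30 arrays, and group values are means ± SD over 3 arrays. A gene is said to have risen or fallen where the adjusted p lay below 0.05. Unless a setting is named beside it, the call of a single member passed under every alternative tried for that comparison, from other scalings of the arrays to leaving out each array in turn. Of the 261 calls over 15 comparisons 163 did, and counts of members include those that did not. For genes outside the 61 the alternatives were not run. Array medians lay between 5.63 and 5.76, and each of the 30 arrays correlated best with another array of its own group. An array of the 3 h group (replicate 3) and one of the 12 h group at 900 (replicate 9) lay farthest from the others of their group, with mean absolute log2 distances of 0.234 and 0.236 over all probe sets, against 0.12 to 0.198 for the other 28. Leaving out the first of these gave 23 members called at 3 h in place of 25. Leaving out the second gave 26 called members at 12 h after 600 to 900 in place of 23.

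Epithelial markers were high in all groups, with group means of Epcam between 11.54 and 12.04. Of 7 epithelial markers 3 rose and 2 fell in steady 900 against steady 300, with a median of −0.1. Means of Krt18 were 12.25 in steady 300 and 11.41 in steady 900, and those of Krt19 were 9.55 and 10.6. The summed log2 level ran from 14.3 to 14.31 and from 14.11 to 14.17. The water channel gene Aqp2 rose from 5.61 in steady 300 to 10.07 in steady 600 and 12.04 in steady 900. Of 13 markers of the collecting duct's principal cells, Aqp2 among them, 10 rose and 0 fell in steady 900 against steady 300. Their median was 3.68, and their summed log2 level ran from 10.28 to 10.42 and from 14.16 to 14.26. At 48 h after 300 to 600, 0 of them were higher and 9 lower than in steady 600, with a median of −2.07. Markers of other cell types were present and moved with osmolality, some lists down and some up. In steady 900 against steady 300, 7 of 7 smooth muscle markers, 7 of 10 fibroblast markers and 8 of 8 leukocyte markers fell, with median log2 changes of −2.42, −1.82 and −1.87. The summed log2 level of the smooth muscle markers ran from 13.57 to 13.63 in steady 300 and from 11.63 to 11.75 in steady 900, that of the fibroblast markers from 13.87 to 13.9 and from 11.43 to 11.54, and that of the leukocyte markers from 12.50 to 12.61 and from 10.23 to 10.32. In the same comparison 3 of 6 loop and proximal tubule markers rose and none fell, and their summed log2 level ran from 8.37 to 8.50 in steady 300 and from 12.20 to 12.32 in steady 900. The brightest of them was the water channel gene Aqp1, with means of 7.85 and 12.18. Of 5 endothelial markers 2 rose and 1 fell, with summed log2 levels of 10.39 to 10.44 and 11.04 to 11.17, and of 6 intercalated cell markers 1 rose and 2 fell, with 9.42 to 9.66 and 7.27 to 7.45. That last drop lay in Slc26a4 alone, with means of 9.32 in steady 300 and 5.37 in steady 900. The remaining intercalated cell markers were dim in both groups, with means between 3.47 and 5.05. The part of these markers in the members' values was not tested. Lum, a fibroblast marker, was near the floor of the array in every group, with means of 2.71 to 2.90. Fewer cells of a type and less RNA per cell cannot be told apart in such bulk samples.

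**Figure D1:**
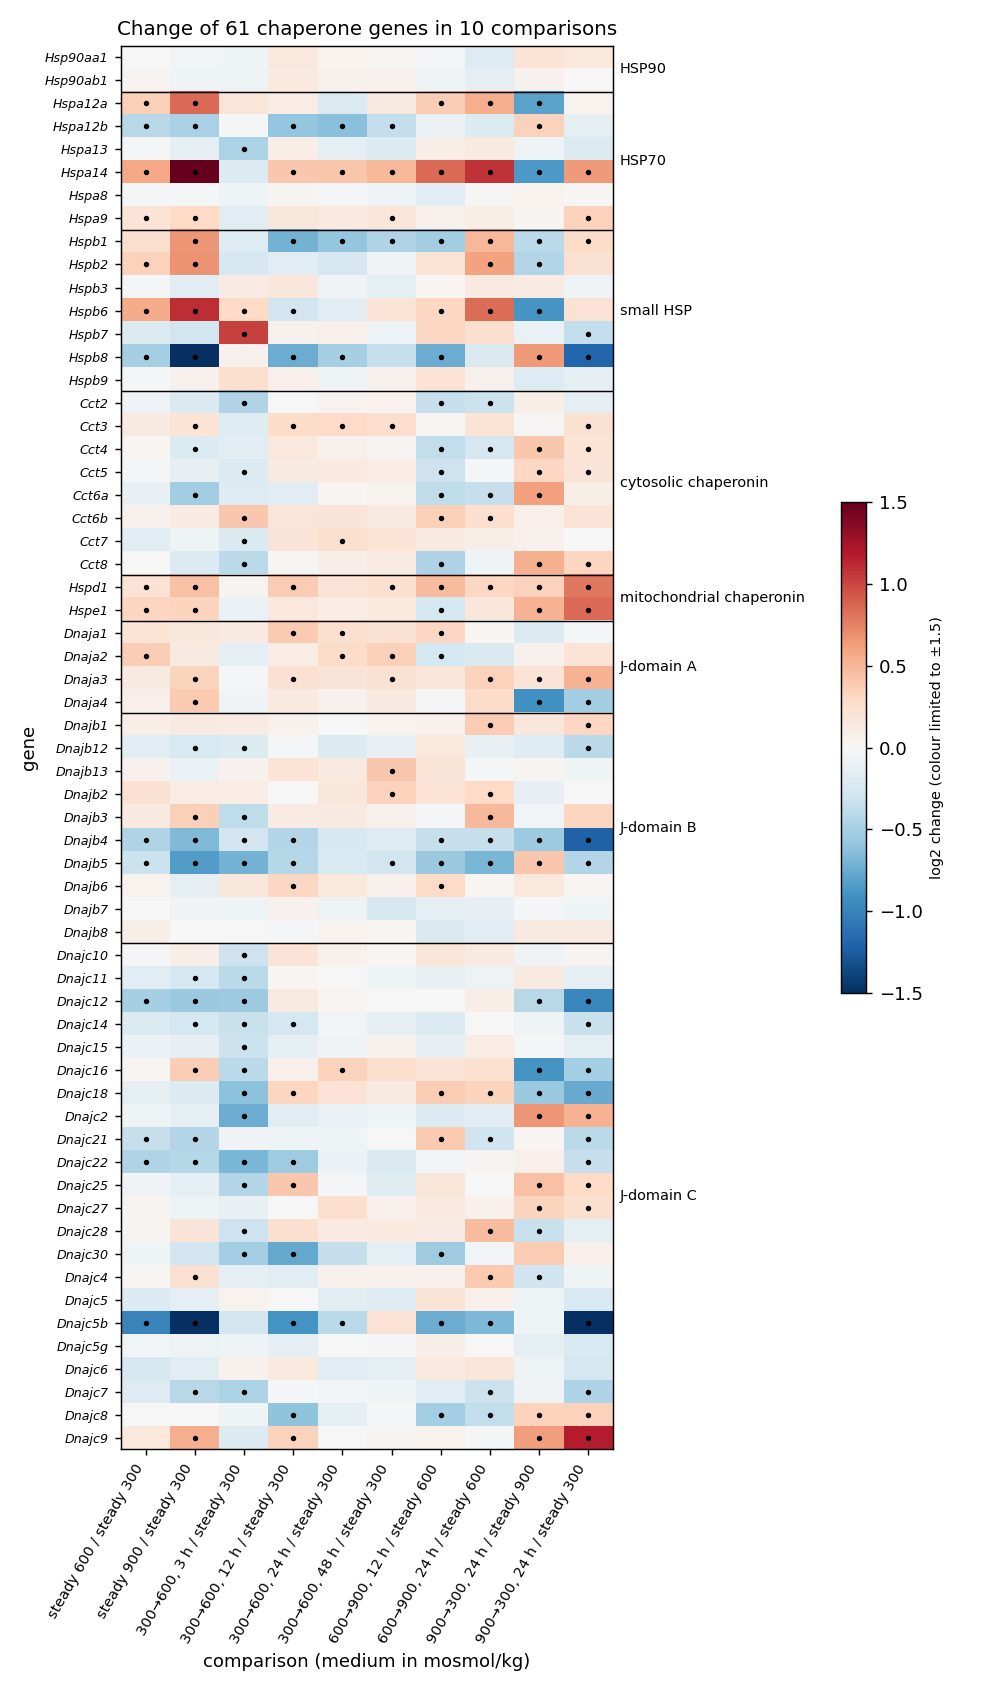
Log2 change of each of the 61 chaperone genes (rows, by family) in 10 comparisons (columns). Red is higher and blue lower in the group named first, colours stop at a change of 1.5, and dots mark an adjusted p below 0.05; Hspb8 and Dnajc5b pass that limit in steady 900 against steady 300, while the HSP90 rows and Hspa8 hold no dot.

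Over the 10 groups, 53 of the 61 chaperone genes differed by the F test of the fit, or 86.9%, against 73.7% of all genes. The 8 that did not pass were Hspa8, Hsp90aa1, Hspb3, Hspb9, Dnajb7, Dnajb8, Dnajc5 and Dnajc5g. The members were brighter than genes at large, with a median of gene means of 8.10 against 6.68 for all genes. Their spread in the fit was smaller, with a median SD of 0.119 against 0.131. The part of brightness and spread in the shares called, here and below, was not tested. In steady 600 against steady 300, 8 members rose and 8 fell, or 26.2% of the 61, against 27.1% of all genes. In steady 900 against steady 300, 15 rose and 14 fell, or 47.5%, against 42.4% of all genes (20.2% higher and 22.3% lower). In steady 900 against steady 600, 7 rose and 5 fell, or 19.7%, against 24.2%. The last split became 8 and 7 after quantile normalization and 9 and 4 after median centring or cyclic loess. The shares called in the steady states lay near those of all genes. Under every alternative, 4 rose and 4 fell in the first of these comparisons, 11 and 10 in the second and 4 and 4 in the third.

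The step from 300 to 600 gave 3 higher and 22 lower members at 3 h, or 41.0%, against 41.6% of all genes (12.1% higher and 29.5% lower). This split depended on how the arrays were scaled to each other: it became 9 higher and 9 lower after quantile normalization, 10 and 12 after median centring and 11 and 10 after cyclic loess, and median centring moved the median change of all genes from −0.04 to 0.13. At 12 h, 9 rose and 11 fell, or 32.8%, against 34.5%, with splits of 18 and 9, 28 and 9, and 16 and 10 under those 3 scalings and a median of all genes of 0.16 after median centring. At 24 h, 6 rose and 4 fell, or 16.4%, against 22.3% (9.4% higher and 13% lower), and at 48 h 8 rose and 3 fell, or 18.0%, against 21.6%. Under the 3 scalings in the same order the splits were 9 and 3, 14 and 4, and 5 and 6 at 24 h, and 12 and 2, 12 and 1, and 7 and 4 at 48 h. Under every alternative, 3 rose and 7 fell at 3 h, 7 and 9 at 12 h, 3 and 2 at 24 h, and 3 and 1 at 48 h. The 10 calls at 24 h became 6 without steady 300 replicate 2, and also 6 without replicate 3 of that group. The 11 calls at 48 h became 7 without steady 300 replicate 1 or 2, 4 without replicate 1 of the 48 h group and 5 without its replicate 2.

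The step from 600 to 900 gave 9 higher and 14 lower members at 12 h, or 37.7%, against 37.8% of all genes, with splits of 21 and 11, 25 and 8, and 21 and 8 under quantile normalization, median centring and cyclic loess. Median centring moved the median change of all genes there from −0.03 to 0.12. At 24 h, 14 rose and 9 fell, or 37.7%, against 25.9%, and median centring gave 17 and 6. Return from 900 to 300 for 24 h gave 15 higher and 12 lower members against steady 900, or 44.3%, against 37.7%. Set against steady 300, the returned cells had 16 higher and 14 lower members, or 49.2%, against 42.6% (20.4% higher and 22.2% lower). After 48 h at 600, 7 members were higher and 3 lower than in steady 600, or 16.4%, against 22% (9.47% higher and 12.5% lower), with 9 and 2 after quantile normalization, and these 10 became 6 without steady 600 replicate 3 or without replicate 2 of the 48 h group. After 24 h at 900, 5 were higher and 2 lower than in steady 900, or 11.5%, against 18.3% (9.47% higher and 8.83% lower). Under every alternative, 5 rose and 7 fell at 12 h and 11 and 5 at 24 h after 600 to 900, and 12 and 10 on return against steady 900. Against steady 300 the returned cells then kept 11 higher and 12 lower members, cells after 48 h at 600 kept 3 and 2 against steady 600, and cells after 24 h at 900 kept 4 and 1 against steady 900. Comparisons that share a control group are not independent of each other.

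The abundant cytosolic chaperones changed little between the steady states. Hspa8, the constitutive HSP70 of the cytosol, had the highest mean of all members. Its arrays read 13.21, 13.22 and 13.19 in steady 300, 13.17, 13.19 and 13.17 in steady 600 and 13.16, 13.21 and 13.17 in steady 900, and its lowest group was 12 h after 600 to 900, with 12.92, 12.98 and 13.18. The steady groups overlapped. The change in steady 900 against steady 300 was −0.03 ± 0.06, with a 95% interval of −0.16 to 0.10, and at 12 h after 600 to 900 it was −0.16 ± 0.06 (adjusted p = 0.0551) and −0.23 without replicate 9, where it was called (adjusted p = 0.000999). Cyclic loess gave 0.16 in that last comparison, with the sign turned and an adjusted p of 0.0208. Hspa8 had 8 probe sets, whose changes in steady 900 against steady 300 ran from −0.05 to −0.02, and probe sets of this gene may share sequence with near-identical copies. Its values lie close to the highest value of the table, 13.88.

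Hsp90ab1, the constitutive cytosolic HSP90, read 12.51, 12.48 and 12.50 in steady 300 and 12.44, 12.46 and 12.38 in steady 900. Its change was −0.07 ± 0.07, with a 95% interval of −0.20 to 0.07. Hsp90aa1, the stress-inducible form, read 11.78, 11.81 and 11.83 in steady 300 and 11.74, 11.85 and 11.72 in steady 900, with a change of −0.04 ± 0.10 and an interval of −0.23 to 0.16. With all arrays and the deposited scaling, neither gene was called in any of the 15 comparisons. At 12 h after 600 to 900, Hsp90aa1 changed by −0.02 ± 0.10 and Hsp90ab1 by −0.08 ± 0.07, and cyclic loess gave called values of 0.23 and 0.20 there, in the other direction. Without replicate 9 of that group Hsp90aa1 was called lower, at −0.20 (adjusted p = 0.0164), and Hsp90ab1 read −0.13 (adjusted p = 0.117). The difference between the 2 upward steps at 12 h was then −0.37 (adjusted p = 0.00415) for Hsp90aa1 and −0.28 (adjusted p = 0.0231) for Hsp90ab1. Cyclic loess also turned the sign of Hsp90aa1 at 3 h, from −0.06 to a called 0.17.

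Among the HSP70 genes, Hspa14 moved most. Its product is a ribosome-associated HSP70 relative that works with the J-domain protein encoded by Dnajc2. Hspa14 read 7.70, 7.57 and 7.63 in steady 300, 8.27, 8.24 and 8.12 in steady 600 and 9.14, 9.30 and 8.97 in steady 900. The 3 groups did not overlap and stood in the order of their osmolality. The gene was 2.83-fold higher in steady 900 than in steady 300, a change of 1.5 ± 0.10 (adjusted p = 4.84e-13). Steady 600 stood 0.58 ± 0.10 (adjusted p = 6.75e-05) above steady 300, and steady 900 stood 0.93 ± 0.10 (adjusted p = 4.18e-08) above steady 600.

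After the step from 300 to 600, Hspa14 read 7.39, 7.67 and 7.20 at 3 h, 8.07, 7.98 and 8.05 at 12 h, 8.22, 7.97 and 7.96 at 24 h and 8.32, 8.12 and 7.97 at 48 h. The rise was called from 12 h on, at 0.40 ± 0.10 (adjusted p = 0.00321), 0.42 ± 0.10 (adjusted p = 0.00355) and 0.50 ± 0.10 (adjusted p = 0.000534). Cells moved from 600 to 900 read 9.03, 9.04 and 9.11 at 12 h and 9.39, 9.25 and 9.23 at 24 h, all above every steady 600 array, with changes of 0.85 ± 0.10 (adjusted p = 1.44e-07) and 1.08 ± 0.10 (adjusted p = 2.98e-09). On return to 300 for 24 h the arrays read 8.38, 8.24 and 8.20. This was −0.86 ± 0.10 (adjusted p = 1.04e-07) against steady 900, yet still 0.64 ± 0.10 (adjusted p = 8.4e-06) against steady 300.

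Hspa12a, a distant HSP70 relative, followed the same order at a low level. It read 5.30, 5.29 and 5.30 in steady 300, 5.55, 5.69 and 5.75 in steady 600 and 6.17, 6.10 and 6.18 in steady 900. No group overlapped the next, and steady 900 was higher than steady 300, at 0.85 ± 0.12 (adjusted p = 5.45e-07). The steady 300 values are not shown to lie above background, so no fold is given. The rise between steady 600 and steady 900 was 0.49 ± 0.12 (adjusted p = 0.00218). The rise between steady 300 and steady 600, 0.36 ± 0.12 (adjusted p = 0.0206), lost its call without steady 300 replicate 2 (0.36) or 3 (0.36) and without steady 600 replicate 2 (0.35) or 3 (0.32). Cells moved from 600 to 900 showed 0.55 ± 0.12 (adjusted p = 0.000675) at 24 h. At 12 h the change of 0.37 ± 0.12 (adjusted p = 0.0139) was lost without steady 600 replicate 1 (0.31) or without replicate 1 of the 12 h group (0.27). Return to 300 took Hspa12a down by −0.80 ± 0.12 (adjusted p = 2.43e-06), to arrays of 5.49, 5.17 and 5.37, which overlap those of steady 300.

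Hspa12b, its relative, moved the other way. It fell in steady 900 against steady 300 by −0.49 ± 0.11 (adjusted p = 0.000747), and after the step to 600 by −0.58 ± 0.11 (adjusted p = 0.000182) at 12 h and −0.63 ± 0.11 (adjusted p = 9.94e-05) at 24 h. At 48 h its change of −0.36 ± 0.11 (adjusted p = 0.0239) was lost under quantile normalization (−0.26) and median centring (−0.30), and without steady 300 replicate 1 (−0.25) or 3 (−0.35) or replicate 1 (−0.31) or 3 (−0.35) of the 48 h group. Hspa9, the HSP70 of the mitochondrial matrix, read 10.90, 10.94 and 10.93 in steady 300, 11.21, 11.29 and 11.16 in steady 900 and 11.25, 11.30 and 11.23 after return. It was 0.30 ± 0.07 (adjusted p = 0.00044) higher in steady 900 and 0.34 ± 0.07 (adjusted p = 9.65e-05) higher after return than in steady 300. Hspa13, an HSP70 relative of the endoplasmic reticulum, changed by −0.48 ± 0.12 (adjusted p = 0.00137) at 3 h, a call that was lost under cyclic loess (−0.23), and was not called in the other 12 comparisons with a control group.

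The mitochondrial chaperonin genes, Hspd1 (the barrel, HSP60) and Hspe1 (its lid, HSP10), were highest in the cells that had returned to 300. Hspd1 read 10.21, 10.27 and 10.19 in steady 300, 10.46, 10.44 and 10.42 in steady 600, 10.62, 10.72 and 10.65 in steady 900 and 11.01, 11.03 and 10.98 after return. The 4 groups did not overlap. Returned cells stood 1.72-fold above steady 300, at 0.79 ± 0.08 (adjusted p = 3.01e-09), and 0.34 ± 0.08 (adjusted p = 0.00117) above steady 900. The steady 900 cells themselves stood 0.44 ± 0.08 (adjusted p = 4.13e-05) above steady 300.

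Hspe1, which shares its promoter region with Hspd1, read 9.87, 9.96 and 10.04 in steady 300, 10.26, 10.34 and 10.24 in steady 600, 10.25, 10.28 and 10.31 in steady 900 and 10.89, 10.71 and 10.82 after return. Steady 600 and steady 900 overlapped, and both lay above steady 300 and below the returned cells. Returned cells were 1.8-fold above steady 300, at 0.85 ± 0.08 (adjusted p = 5.17e-10), and 0.52 ± 0.08 (adjusted p = 5.13e-06) above steady 900. Steady 600 and steady 900 stood 0.32 ± 0.08 (adjusted p = 0.00259) and 0.33 ± 0.08 (adjusted p = 0.00138) above steady 300.

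The pair moved apart at 12 h after 600 to 900. Hspd1 read 10.93, 10.86 and 10.98 there, all above steady 600, a rise of 0.48 ± 0.08 (adjusted p = 2.06e-05). Hspe1 read 10.17, 10.05 and 9.83, below steady 600, and changed by −0.26 ± 0.08 (adjusted p = 0.0103). The change of Hspe1 lost its call under quantile normalization (−0.13), median centring (−0.11), cyclic loess (−0.08) and the fit on the compared arrays alone (−0.26), and without steady 600 replicate 2 (−0.23) or replicate 9 of the 12 h group (−0.17). At 24 h Hspd1 read 10.79, 10.67 and 10.81 and Hspe1 10.45, 10.47 and 10.42. Hspd1 was 0.31 ± 0.08 (adjusted p = 0.0042) above steady 600, and Hspe1 changed by 0.17 ± 0.08 (adjusted p = 0.136). After 12 h at 600, Hspd1 had risen by 0.38 ± 0.08 (adjusted p = 0.00046) over steady 300.

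**Figure D2:**
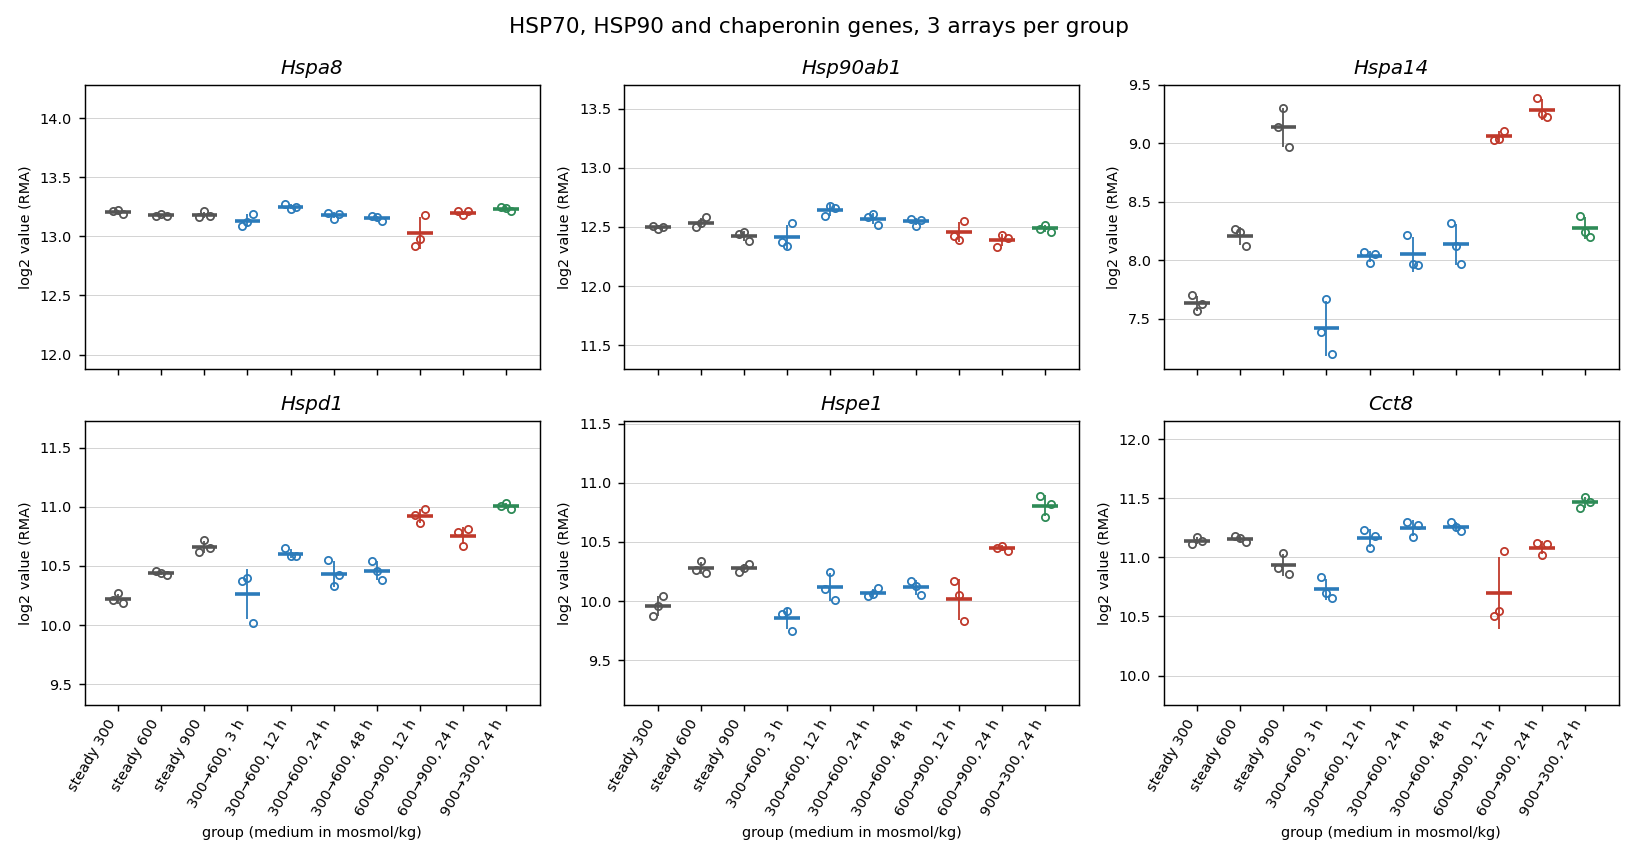
Log2 values of 6 genes by group. Circles are single arrays, bars the mean and vertical lines the SD of 3 arrays, and each vertical axis spans at least 2.4 log2 units; Hspa8 and Hsp90ab1 have the narrowest ranges of group means of all 61 members, Hspa14 follows osmolality, and Hspd1, Hspe1 and Cct8 are highest after return from 900 to 300.

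The cytosolic chaperonin, called CCT or TRiC, is a ring of 8 kinds of subunit that folds actin and tubulin among others. Of its genes 7 bright ones and the dim, testis-type Cct6b were members. In steady 900 against steady 300, 1 of the 8 rose and 2 fell, at 12 h after 600 to 900 1 rose and 5 fell, and on return 4 rose and none fell. Of all genes 20.2% rose and 22.3% fell in the first of these comparisons, 12.5% and 25.3% in the second, and 19.3% and 18.5% in the third. Under every alternative 1 of the 8 fell and none rose in the first, and 1 rose and 2 fell in the second. Cct8 read 11.11, 11.17 and 11.14 in steady 300, 10.91, 11.04 and 10.86 in steady 900 and 11.42, 11.51 and 11.47 after return. Returned arrays lay above all of both steady groups, at 0.53 ± 0.09 (adjusted p = 4.53e-05) against steady 900 and 0.32 ± 0.09 (adjusted p = 0.00618) against steady 300. Cct6a read 9.52, 9.50 and 9.61, 8.94, 9.19 and 8.93 and 9.62, 9.70 and 9.57 in the same 3 groups. It fell by −0.52 ± 0.08 (adjusted p = 7.05e-06) in steady 900, by −0.41 ± 0.08 (adjusted p = 0.000356) there against steady 600 and by −0.35 ± 0.08 (adjusted p = 0.00205) at 24 h after 600 to 900, and rose by 0.61 ± 0.08 (adjusted p = 8.81e-07) on return.

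The 4 calls on return against steady 900 held under all alternatives. Besides Cct8 and Cct6a they were Cct4 at 0.40 ± 0.08 (adjusted p = 0.00015) and Cct5 at 0.31 ± 0.07 (adjusted p = 0.0011). The other 4 were Cct2 at 0.09 ± 0.09, Cct3 at 0.02 ± 0.08, Cct7 at 0.06 ± 0.09 and Cct6b at 0.08 ± 0.09, without a call. In steady 900 against steady 300, Cct4 changed by −0.21 ± 0.08 (adjusted p = 0.039) and Cct3 by 0.21 ± 0.08 (adjusted p = 0.0378). Cct4 lost that call under the 3 other scalings (−0.18 to −0.15) and without any 1 of the 6 arrays (−0.21 to −0.19), and Cct3 lost it without any 1 of them (0.18 to 0.22) except steady 900 replicate 3. Cct4 in steady 900 against steady 600, −0.24 ± 0.08 (adjusted p = 0.0266), was lost under median centring (−0.20) and cyclic loess (−0.18) and without any 1 array (−0.25 to −0.23) except steady 600 replicate 1.

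Several CCT genes read low at 3 h after 300 to 600 and at 12 h after 600 to 900. No group was taken at 3 h after 600 to 900. At 12 h after 300 to 600, 1 of the 8 rose and 0 fell, with a median of 0.15. Of all genes 11.9% rose and 22.6% fell there. Cct2 read 10.88, 10.94 and 11.05 at 3 h after 300 to 600, against 11.42, 11.39 and 11.41 in steady 300, and fell by −0.45 ± 0.09 (adjusted p = 0.000298). The decreases of Cct8, −0.41 ± 0.09 (adjusted p = 0.000853), Cct5, −0.21 ± 0.07 (adjusted p = 0.0223), and Cct7, −0.22 ± 0.09 (adjusted p = 0.0438), were lost under quantile normalization (−0.19, −0.02 and 0.01) and cyclic loess (−0.17, 0.02 and 0.03), among other settings for Cct5 and Cct7, including the fit without replicate 3 of the 3 h group for Cct5 (−0.15). At 12 h after 600 to 900, 5 of the 8 genes were called lower. Cct8, at −0.46 ± 0.09 (adjusted p = 0.000232), and Cct6a, at −0.38 ± 0.08 (adjusted p = 0.000511), held under all alternatives. Cct8 read 10.50, 10.55 and 11.05 there, of which the highest was replicate 9, and without that array its change was −0.64. Cct4, at −0.37 ± 0.08 (adjusted p = 0.000456), was lost under cyclic loess (−0.18). Cct5, at −0.31 ± 0.07 (adjusted p = 0.00135), and Cct2, at −0.34 ± 0.09 (adjusted p = 0.00503), were lost under median centring (−0.15 and −0.18) and cyclic loess (−0.09 and −0.11) and in further fits. Cct3 read 10.50, 10.48 and 10.46 at 12 h after 300 to 600 and rose by 0.27 ± 0.08 (adjusted p = 0.00873), and by 0.29 ± 0.08 (adjusted p = 0.00703) at 24 h. Cct7 was 0.36 ± 0.09 (adjusted p = 0.00185) higher at 48 h after 300 to 600 than in steady 600. Cct6b was dim, with group means of 3.23 to 3.65, and rose by 0.40 ± 0.09 (adjusted p = 0.000612) at 3 h.

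Of the 8 members with the widest range of group means, 4 were small heat shock protein genes. Hspb1 (HSP27), which also binds actin filaments, read 10.04, 9.96 and 10.03 in steady 300, 10.20, 10.28 and 10.26 in steady 600 and 10.70, 10.58 and 10.74 in steady 900. The 3 groups did not overlap. Steady 900 stood 1.58-fold above steady 300, at 0.66 ± 0.10 (adjusted p = 1.65e-06), and 0.43 ± 0.10 (adjusted p = 0.00141) above steady 600.

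On the way to 600 Hspb1 went down. It read 9.68, 9.66 and 10.11 at 3 h, 9.26, 9.36 and 9.27 at 12 h, 9.38, 9.54 and 9.35 at 24 h and 9.55, 9.52 and 9.60 at 48 h after 300 to 600. From 12 h on, all arrays lay below all of steady 300, with changes of −0.71 ± 0.10 (adjusted p = 1.22e-06), −0.58 ± 0.10 (adjusted p = 3.5e-05) and −0.45 ± 0.10 (adjusted p = 0.000928). After 48 h at 600 the cells were −0.69 ± 0.10 (adjusted p = 2.51e-06) from steady 600, at the same osmolality. On the way from 600 to 900 Hspb1 read 9.80, 9.89 and 9.49 at 12 h and 10.76, 10.82 and 10.67 at 24 h. It was thus below steady 600 at 12 h, by −0.52 ± 0.10 (adjusted p = 8.33e-05), and above it at 24 h, by 0.50 ± 0.10 (adjusted p = 0.000224). After return to 300 it read 10.32, 10.22 and 10.28, which was −0.40 ± 0.10 (adjusted p = 0.00162) against steady 900.

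Hspb6 (HSP20), known best from muscle, read 6.78, 6.91 and 6.84 in steady 300, 7.50, 7.39 and 7.32 in steady 600 and 7.98, 7.94 and 7.93 in steady 900. Again no groups overlapped, and steady 900 was 2.16-fold above steady 300, at 1.11 ± 0.09 (adjusted p = 4.24e-11). Steady 600 stood 0.56 ± 0.09 (adjusted p = 2.49e-05) above steady 300. After 300 to 600, Hspb6 read 7.18, 7.06 and 7.19 at 3 h, 6.35, 6.77 and 6.55 at 12 h, 6.81, 6.60 and 6.65 at 24 h and 7.07, 7.06 and 7.02 at 48 h. It rose by 0.30 ± 0.09 (adjusted p = 0.012) at 3 h and changed by −0.29 ± 0.09 (adjusted p = 0.0183) at 12 h, a call lost under 3 other scalings (−0.21 to −0.11), in the fit on the compared arrays alone (−0.29) and without steady 300 replicate 2 (−0.25) or replicate 1 of the 12 h group (−0.18). It read −0.16 ± 0.09 against steady 300 at 24 h and, at 48 h, was −0.35 ± 0.09 (adjusted p = 0.00646) from steady 600. After 600 to 900, the gene read 7.88, 7.71 and 7.56 at 12 h and 8.33, 8.32 and 8.08 at 24 h, and 7.02, 7.14 and 7.02 after return. All 3 arrays at 24 h exceeded those of steady 900, by 0.29 ± 0.09 (adjusted p = 0.0297), but that call was lost without any 1 of the 6 arrays (0.25 to 0.30) except replicate 9 of the 24 h group. The change at 24 h was 0.84 ± 0.09 (adjusted p = 4.62e-08) against steady 600, and on return the gene fell by −0.89 ± 0.09 (adjusted p = 9.67e-09).

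Hspb2, which binds the kinase encoded by Dmpk, read 6.41, 6.49 and 6.42 in steady 300, 6.86, 6.71 and 6.78 in steady 600 and 7.11, 7.0 and 7.23 in steady 900. It rose by 0.67 ± 0.12 (adjusted p = 4.48e-05) in steady 900 and by 0.60 ± 0.12 (adjusted p = 0.000386) at 24 h after 600 to 900, and fell by −0.44 ± 0.12 (adjusted p = 0.00551) on return. The rise of 0.34 ± 0.12 (adjusted p = 0.0395) in steady 600 lost its call without any 1 of the 6 arrays (0.30 to 0.38). At 48 h after 300 to 600 it was −0.40 ± 0.12 (adjusted p = 0.0196) from steady 600, a call lost under quantile normalization (−0.33) and without steady 600 replicate 1 (−0.36) or replicate 2 or 3 of the 48 h group (both −0.39). Cryab, the alpha-B crystallin, is a small heat shock protein outside the symbol rule. Its group means were 11.13 in steady 300, 11.79 in steady 600, 12.22 in steady 900, 10.75 at 12 h after 300 to 600 and 11.60 after return. It changed by 1.09 ± 0.08 in steady 900, by −0.38 ± 0.08 at 12 h after 300 to 600 and by −0.62 ± 0.08 on return.

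Hspb8 (HSP22), the partner of the co-chaperone Bag3 in clearing damaged filaments, went the other way. It read 6.67, 6.65 and 6.88 in steady 300, 5.80, 6.41 and 6.50 in steady 600 and 5.02, 4.97 and 4.74 in steady 900. Steady 900 lay below both other steady groups, at −1.83 ± 0.15 (adjusted p = 1.59e-11) against steady 300 and at −1.33 ± 0.15 (adjusted p = 3.66e-08) against steady 600. The steady 900 values lie in a range of the scale that is not shown to lie above background, so no fold is given. Hspb8 read 6.75, 6.71 and 6.97 at 3 h, 5.90, 5.73 and 6.37 at 12 h, 6.52, 6.03 and 6.17 at 24 h and 6.38, 6.33 and 6.48 at 48 h after 300 to 600. The change at 12 h was −0.74 ± 0.15 (adjusted p = 0.000242). Those in steady 600, −0.50 ± 0.15 (adjusted p = 0.011), and at 24 h, −0.50 ± 0.15 (adjusted p = 0.0145), depended on single arrays: the first was lost without steady 300 replicate 3 (−0.43) or steady 600 replicate 1 (−0.28) and in the fit on the compared arrays alone (−0.50), and the second under quantile normalization (−0.40) and without steady 300 replicate 3 (−0.42) or replicate 2 (−0.39) or 3 (−0.46) of the 24 h group. At 12 h after 600 to 900 Hspb8 fell by −0.74 ± 0.15 (adjusted p = 0.000172). It read 5.63, 5.48 and 5.37 at 12 h and 6.02, 5.99 and 6.03 at 24 h after 600 to 900, and 5.63, 5.54 and 5.47 after return. Cells held for 24 h at 900 were thus 1.10 ± 0.15 (adjusted p = 2.34e-06) from steady 900, and returned cells were 0.64 ± 0.15 (adjusted p = 0.000916) from steady 900 and −1.19 ± 0.15 (adjusted p = 1.04e-07) from steady 300.

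Bag3 moved the same way as Hspb8 in the steady states, with group means of 8.62, 8.14 and 7.61 and a change of −1.01 ± 0.08 in steady 900. Smooth muscle and fibroblast markers moved in the same direction as Hspb8 in some comparisons and not in others. At 24 h after 600 to 900 against steady 600, 7 of 7 smooth muscle and 8 of 10 fibroblast markers fell, with medians of −1.56 and −0.84. Hspb8 was not called there, with means of 6.24 in steady 600 and 6.01 at 24 h. At 24 h at 900 against steady 900, where Hspb8 was higher, 5 of 7 smooth muscle and 7 of 10 fibroblast markers were higher too, with medians of 0.47 and 0.64. On return against steady 900, where Hspb8 rose, 1 of 7 and 3 of 10 were higher, and 0 and 2 lower, with medians of 0.23 and −0.17. Summed log2 levels of smooth muscle markers were 11.72 to 11.93 at 24 h at 900 and 11.81 to 11.85 after return, against 11.63 to 11.75 in steady 900. Their part in the Hspb8 values was not tested.

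Hspb7, a heart-type small heat shock protein, was dim and highest at 3 h. It read 4.01, 3.96 and 3.94 in steady 300, 3.92, 3.92 and 3.47 in steady 600 and 3.54, 3.54 and 4.03 in steady 900, and 4.73, 5.08 and 5.16 at 3 h, 3.92, 4.17 and 3.99 at 12 h, 3.70, 4.08 and 4.37 at 24 h and 3.97, 4.03 and 3.66 at 48 h after 300 to 600. Cells moved from 600 to 900 gave 3.98, 4.15 and 4.10 at 12 h and 3.89, 4.13 and 3.99 at 24 h, and returned cells 3.49, 3.56 and 3.76. The 3 h arrays lay above every other array, at 1.02 ± 0.15 (adjusted p = 3.73e-06) against steady 300 and 0.94 without replicate 3. The deposited values carry no measure of background, so no fold is given for a gene this dim. Hspb3 and Hspb9 were dim, with group means of 4.24 to 4.57 and 4.84 to 5.21, and were not called in any comparison.

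**Figure D3:**
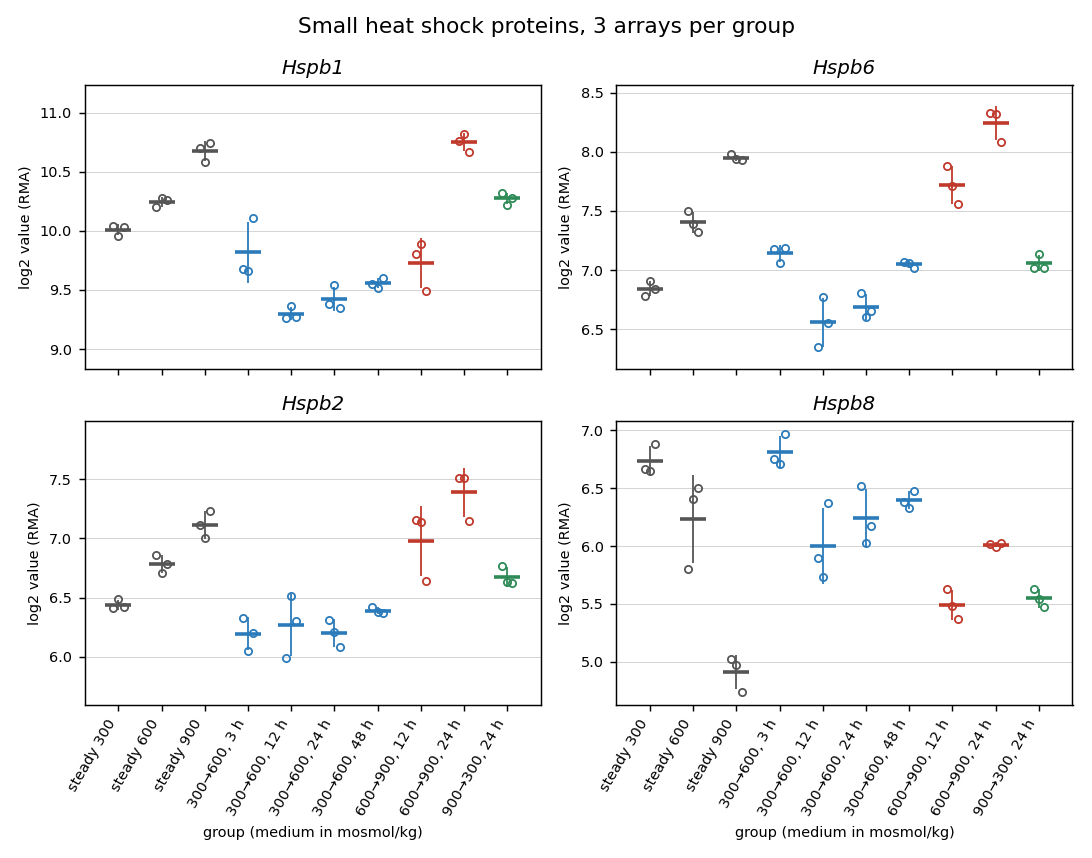
Log2 values of 4 small heat shock protein genes by group, with circles for arrays, bars for means and vertical lines for the SD of 3 arrays. Hspb1, Hspb6 and Hspb2 rise from steady 300 to steady 900, Hspb1 lies below steady 300 from 12 h after the step to 600 on, and Hspb8 is lowest in steady 900.

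Class A J-domain proteins are the general partners of HSP70, 3 in the cytosol and Dnaja3 in mitochondria. Dnaja1 read 10.55, 10.57 and 10.44 in steady 300 and 10.97, 10.88 and 10.89 at 12 h after 300 to 600. The groups did not overlap, and the rise was 0.39 ± 0.09 (adjusted p = 0.000781). At 24 h it changed by 0.24 ± 0.09 (adjusted p = 0.0482), a call lost without any 1 of the 6 arrays (0.20 to 0.27) except replicate 2 of the 24 h group. At 12 h after 600 to 900 its change of 0.31 ± 0.09 (adjusted p = 0.00601) was lost in the fit on the compared arrays alone (0.31) and without replicate 9 of that group (0.19). Dnaja2 read 10.03, 10.04 and 10.06 in steady 300, 10.42, 10.41 and 10.42 in steady 600 and 10.12, 10.29 and 10.16 in steady 900. It rose in steady 600, by 0.37 ± 0.10 (adjusted p = 0.00408), and at 48 h after 300 to 600, by 0.36 ± 0.10 (adjusted p = 0.007). At 24 h the change of 0.28 ± 0.10 (adjusted p = 0.0378) was lost without any 1 of the 6 arrays (0.25 to 0.30) and under cyclic loess (0.27), and its change in steady 900 was 0.14 ± 0.10 (adjusted p = 0.259).

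Dnaja3 was 0.33 ± 0.07 (adjusted p = 0.000568) higher in steady 900 and 0.52 ± 0.07 (adjusted p = 1.03e-06) higher after return than in steady 300, like the mitochondrial Hspd1 and Hspa9 in direction. Dnaja4 read 6.52, 6.68 and 6.62 in steady 300, 6.95, 6.86 and 7.17 in steady 900 and 5.76, 6.03 and 6.48 after return. Returned arrays lay below both, at −0.91 ± 0.14 (adjusted p = 5.79e-06) against steady 900. Its change in steady 900 against steady 300, 0.39 ± 0.14 (adjusted p = 0.0269), was lost without steady 300 replicate 1 (0.35) or 3 (0.39) or steady 900 replicate 3 (0.30). The change after return against steady 300, −0.52 ± 0.14 (adjusted p = 0.00333), was lost without replicate 1 of the returned group (−0.35).

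Of the 10 class B genes, Dnajb4 and Dnajb5 fell most. Dnajb4 read 10.35, 10.36 and 10.31 in steady 300, 9.88, 9.93 and 9.86 in steady 600, 9.66, 9.72 and 9.66 in steady 900 and 9.13, 9.18 and 9.09 after return. The 4 groups did not overlap, and return to 300 took the gene further down instead of back up. It fell by −0.45 ± 0.09 (adjusted p = 0.000287) in steady 600 and −0.66 ± 0.09 (adjusted p = 5.41e-07) in steady 900, and returned cells were 2.31-fold below steady 300, at −1.21 ± 0.09 (adjusted p = 3.71e-12). At 24 h after 600 to 900 it changed by −0.35 ± 0.09 (adjusted p = 0.00413). Dnajb5 read 8.0, 8.10 and 7.88 in steady 300, 7.13, 7.12 and 7.21 in steady 900, 7.09, 7.19 and 7.58 at 3 h after 300 to 600 and 7.51, 7.65 and 7.49 after return. It fell by −0.84 ± 0.10 (adjusted p = 2.85e-08) in steady 900, −0.52 ± 0.10 (adjusted p = 0.00014) there against steady 600, −0.71 ± 0.10 (adjusted p = 1.81e-06) at 3 h, −0.56 ± 0.10 (adjusted p = 3.63e-05) at 12 h and −0.69 ± 0.10 (adjusted p = 3.25e-06) at 24 h after 600 to 900. On return it rose by 0.40 ± 0.10 (adjusted p = 0.00177). At 48 h after 300 to 600 the change of −0.28 ± 0.10 (adjusted p = 0.0433) was lost under median centring (−0.22) and without any 1 of the 6 arrays (−0.30 to −0.23) except steady 300 replicate 3. The smooth muscle markers were lower in steady 900 against steady 300, in 7 of 7. At 3 h after 300 to 600, 1 of them rose and 4 fell, with a median of −0.29. On return against steady 900, 1 was higher and 0 lower, with a median of 0.23. Dnajb5 rose there, while the mean of Dnajb4 went from 9.68 to 9.13. The part of these markers in the Dnajb4 and Dnajb5 values was not tested.

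Dnajb1 (HSP40), the main partner of inducible HSP70, read 8.60, 8.52 and 8.79 in steady 300, 8.67, 8.79 and 8.74 in steady 600, 8.83, 8.80 and 8.69 in steady 900, 9.00, 9.16 and 9.17 at 24 h after 600 to 900 and 9.03, 8.88 and 8.93 after return. The steady groups stood close together, with a change of 0.14 ± 0.08 in steady 900 and a 95% interval of −0.04 to 0.31. The arrays at 24 h were above all steady arrays, at 0.38 ± 0.08 (adjusted p = 0.000881) against steady 600 and 0.34 ± 0.08 (adjusted p = 0.00434) against steady 900. After return the gene was 0.31 ± 0.08 (adjusted p = 0.00328) against steady 300. Dnajb2 was 0.35 ± 0.09 (adjusted p = 0.00441) higher at 48 h after 300 to 600 than in steady 300, and 0.43 ± 0.09 (adjusted p = 0.000768) higher at 24 h after 600 to 900 than in steady 900. Dnajb13 was dim, with a mean of 4.67 at 48 h. Its change of 0.41 ± 0.12 (adjusted p = 0.0105) there was lost without replicate 1 (0.35) or 2 (0.37) of that group, and that of 0.34 ± 0.12 (adjusted p = 0.034) against steady 600 without any 1 of the 6 arrays (0.29 to 0.35) except replicate 3 of the 48 h group. Dnajb7 and Dnajb8, with group means of 2.65 to 2.96 and 4.88 to 5.15, were not called.

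Class C J-domain proteins share no more than the J domain and serve many separate tasks. Dnajc9, a co-chaperone of histones, read 7.12, 7.08 and 7.09 in steady 300, 7.22, 7.34 and 7.22 in steady 600 and 7.57, 7.81 and 7.54 in steady 900. The gene read 6.79, 7.17 and 6.73 at 3 h, 7.45, 7.33 and 7.54 at 12 h, 7.20, 7.02 and 7.08 at 24 h and 7.08, 7.24 and 7.08 at 48 h after 300 to 600, and 7.49, 7.26 and 7.18 at 12 h and 7.25, 7.12 and 7.34 at 24 h after 600 to 900. Returned cells read 8.34, 8.28 and 8.20, above every other array. That was 2.26-fold above steady 300, at 1.18 ± 0.10 (adjusted p = 5.83e-11), and 0.63 ± 0.10 (adjusted p = 8.17e-06) above steady 900. Steady 900 stood 0.54 ± 0.10 (adjusted p = 4.67e-05) above steady 300, and cells at 12 h after 300 to 600 0.35 ± 0.10 (adjusted p = 0.00799). The values of steady 900 against steady 600, 0.38 ± 0.10 (adjusted p = 0.00519), and of 24 h after 600 to 900 against steady 900, −0.40 ± 0.10 (adjusted p = 0.00489), lost their calls without steady 900 replicate 2 (0.30 and −0.32).

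Dnajc2 (zuotin, or MPP11), the ribosome-bound partner of Hspa14, did not follow Hspa14. It read 8.23, 8.21 and 8.24 in steady 300, 8.26, 8.11 and 8.10 in steady 600 and 8.09, 8.12 and 8.05 in steady 900. The steady groups lay within a narrow band, where Hspa14 rose 2.83-fold. Dnajc2 read 7.50, 7.45 and 7.49 at 3 h, 7.96, 8.17 and 8.05 at 12 h, 8.15, 8.01 and 8.22 at 24 h and 8.19, 8.18 and 8.13 at 48 h after 300 to 600. Values after 600 to 900 were 7.81, 7.81 and 8.22 at 12 h and 7.98, 7.90 and 8.12 at 24 h, and those after return 8.75, 8.90 and 8.59. The 3 h arrays were the lowest of all and the returned arrays the highest. Dnajc2 fell by −0.75 ± 0.09 (adjusted p = 3.58e-07) at 3 h and was 0.66 ± 0.09 (adjusted p = 1.47e-06) higher after return than in steady 900 and 0.52 ± 0.09 (adjusted p = 3.76e-05) higher than in steady 300.

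Dnajc5b, a testis-type relative of the cysteine string protein gene Dnajc5, had the widest range of group means of all members, 2.06, in the dim part of the scale. It read 5.68, 6.28 and 5.96 in steady 300, 5.14, 5.02 and 4.75 in steady 600 and 4.25, 4.15 and 4.22 in steady 900. None of these groups overlapped, and steady 900 stood below steady 300, at −1.76 ± 0.12 (adjusted p = 1.37e-13), in a range of the scale that is not shown to lie above background. Steady 600 stood −1.0 ± 0.12 (adjusted p = 5.21e-08) from steady 300. It read 5.84, 5.63 and 5.64 at 3 h, 5.09, 5.11 and 5.02 at 12 h, 5.65, 5.53 and 5.51 at 24 h and 6.25, 6.36 and 5.96 at 48 h after 300 to 600. The change of −0.41 ± 0.12 (adjusted p = 0.00998) at 24 h was lost under quantile normalization (−0.28), in the fit on the compared arrays alone (−0.41) and without steady 300 replicate 2 (−0.25). The fall of −0.90 ± 0.12 (adjusted p = 4.12e-07) at 12 h had gone by 48 h, when the cells were 1.22 ± 0.12 (adjusted p = 1.56e-09) above steady 600. Dnajc5b read 4.16, 4.27 and 4.26 at 12 h and 4.16, 4.37 and 4.37 at 24 h after 600 to 900, and 4.21, 4.15 and 4.05 after return, −1.83 ± 0.12 (adjusted p = 7.44e-14) from steady 300. It thus fell by −0.74 ± 0.12 (adjusted p = 6.01e-06) and −0.67 ± 0.12 (adjusted p = 4.58e-05) in the step to 900. Leukocyte markers fell in steady 600 too, in 7 of 8. At 48 h, where Dnajc5b was high, their summed log2 level was 10.22 to 10.38, against 12.50 to 12.61 in steady 300, and at 12 h it was 12.38 to 12.73. Their part in the Dnajc5b values was not tested.

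The other class C genes gave narrower ranges. At 3 h after 300 to 600, Dnajc22 fell by −0.68 ± 0.10 (adjusted p = 3.51e-06), Dnajc18 by −0.61 ± 0.09 (adjusted p = 5.02e-06), Dnajc12 by −0.54 ± 0.10 (adjusted p = 8.18e-05) and Dnajc25 by −0.44 ± 0.09 (adjusted p = 0.00021). With Dnajc2 these were the 5 of 13 class C calls at 3 h that held under every alternative, while the remaining 8 depended on the setting. Dnajc8, a spliceosome-associated protein, read 9.26, 9.22 and 9.14 in steady 300 and 8.58, 8.62 and 8.63 at 12 h after 300 to 600, without overlap, a fall of −0.60 ± 0.09 (adjusted p = 4.82e-06). It fell again at 12 h after 600 to 900, by −0.51 ± 0.09 (adjusted p = 3.31e-05), and was 0.35 ± 0.09 (adjusted p = 0.00258) higher after return than in steady 900. At 24 h after 600 to 900 it was −0.37 ± 0.09 (adjusted p = 0.00241) from steady 600 and −0.36 ± 0.09 (adjusted p = 0.00484) from steady 900. Dnajc30, a mitochondrial protein, fell by −0.77 ± 0.18 (adjusted p = 0.00109) at 12 h after 300 to 600. Its change of −0.53 ± 0.18 (adjusted p = 0.0195) at 12 h after 600 to 900 was lost in 8 of the alternatives, among them the fit without replicate 9 of that group (−0.26). Dnajc25 rose by 0.40 ± 0.09 (adjusted p = 0.000771) at 12 h after 300 to 600, and Dnajc16 by 0.34 ± 0.10 (adjusted p = 0.00946) at 24 h.

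Dnajc12, which assists the aromatic amino acid hydroxylases, read 8.89, 8.96 and 8.94 in steady 300, 8.42, 8.43 and 8.44 in steady 600, 8.36, 8.36 and 8.38 in steady 900, 8.96, 8.92 and 8.89 at 48 h after 300 to 600 and 7.89, 8.02 and 7.94 after return. The steady 600 and steady 900 arrays were lower than those of steady 300, by −0.50 ± 0.10 (adjusted p = 0.000254) and −0.56 ± 0.10 (adjusted p = 2.85e-05). The 48 h arrays were not, and stood 0.49 ± 0.10 (adjusted p = 0.000354) above steady 600. Return lowered the gene to −0.98 ± 0.10 (adjusted p = 2.26e-09) against steady 300. Dnajc18 was −0.76 ± 0.09 (adjusted p = 4.62e-08) lower after return than in steady 300, and Dnajc16 was −0.88 ± 0.10 (adjusted p = 1.37e-08) lower after return than in steady 900. Dnajc18 and Dnajc21 were 0.38 ± 0.09 (adjusted p = 0.0011) and 0.39 ± 0.09 (adjusted p = 0.000983) higher at 12 h after 600 to 900 than in steady 600, and Dnajc18 was 0.39 ± 0.09 (adjusted p = 0.00261) higher at 24 h than in steady 900. Dnajc22 stood −0.45 ± 0.10 (adjusted p = 0.000806) from steady 300 in steady 600. The change of Dnajc21 at 48 h after 300 to 600 against steady 600, 0.33 ± 0.09 (adjusted p = 0.00846), was lost without steady 600 replicate 3 (0.25) or replicate 1 of the 48 h group (0.28). Dnajc5, Dnajc5g and Dnajc6 were not called in any comparison.

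**Figure D4:**
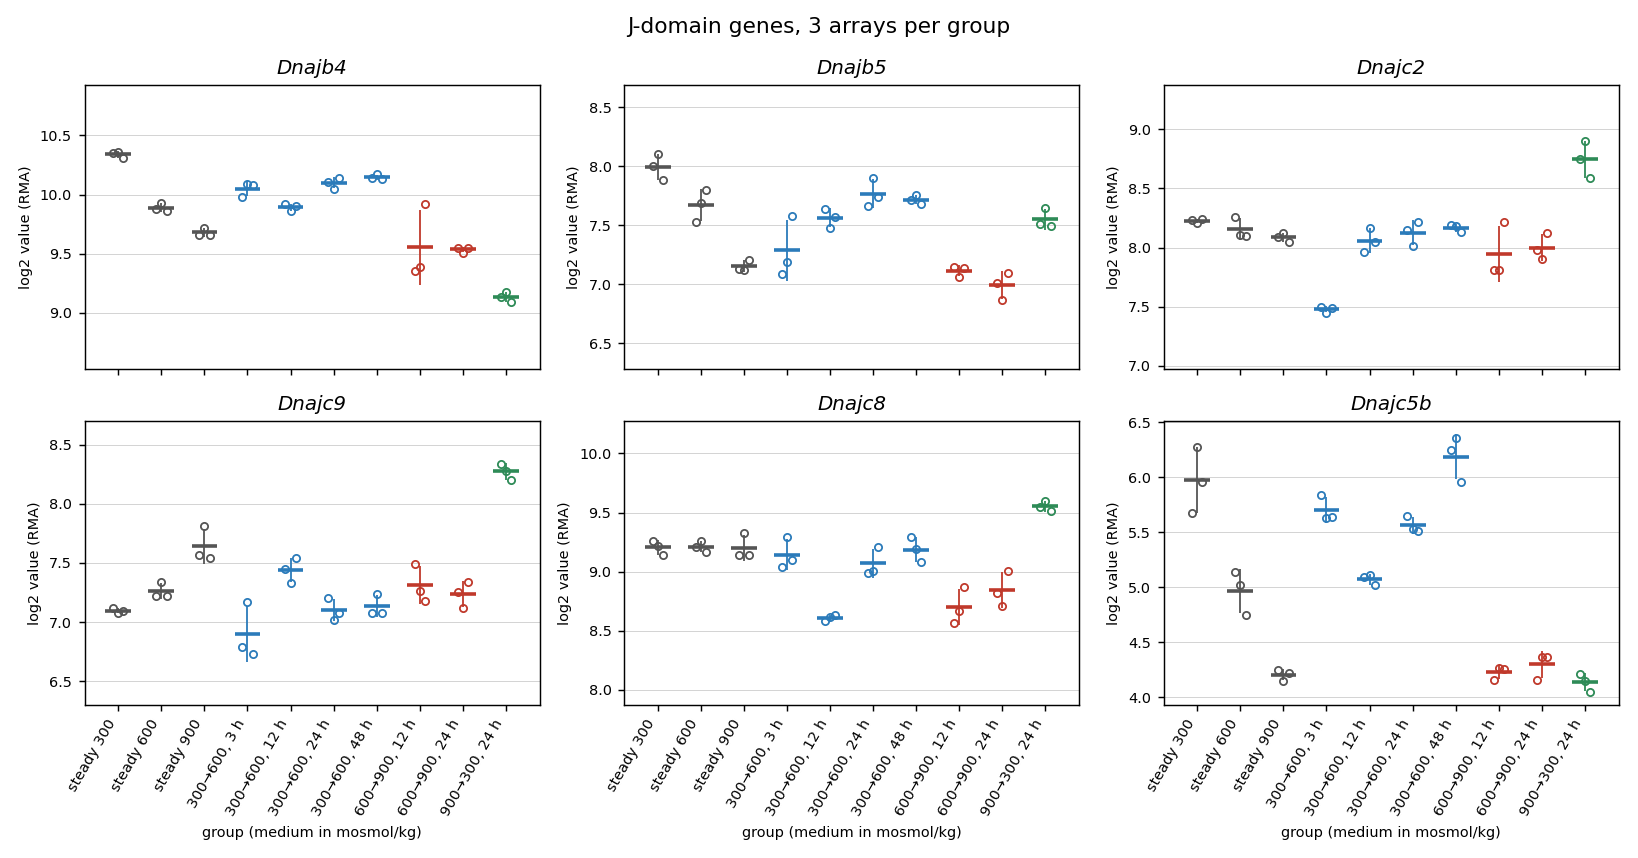
Log2 values of 6 J-domain genes by group, with circles for arrays, bars for means and vertical lines for the SD of 3 arrays. Dnajc9 and Dnajc2 are highest after return from 900 to 300, where Dnajb4 is lowest, and Dnajc5b is low in steady 900, after the step to 900 and after return.

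Both upward steps add 300 mosmol/kg, and the difference between them was tested within the same fit. At 24 h, 9 of the 61 members differed between the steps, 6 toward higher and 3 toward lower values in the step from 600 to 900, or 14.8%, against 12.9% of all genes (7.48% higher and 5.46% lower), with 6 and 5 after quantile normalization. Hspb1 gave the largest difference, 1.09 ± 0.14 (adjusted p = 1.85e-06): it changed by −0.58 ± 0.10 in the step from 300 and by 0.50 ± 0.10 in the step from 600. Hspb6 differed by 1.00 ± 0.13 (adjusted p = 3.64e-06), with −0.16 ± 0.09 and 0.84 ± 0.09 in the 2 steps. Hspb2 differed by 0.85 ± 0.18 (adjusted p = 0.00101), Hspa12a by 0.75 ± 0.17 (adjusted p = 0.00215) and Hspa14 by 0.66 ± 0.15 (adjusted p = 0.00228). Dnaja2 went the other way, at −0.50 ± 0.14 (adjusted p = 0.0124).

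At 12 h, 9 members differed between the steps, 5 toward higher and 4 toward lower values, or 14.8%, against 13.4% of all genes, with 3 and 4 after median centring and 5 and 1 after cyclic loess. Leaving out replicate 9 of the 12 h group at 900 gave 16, and leaving out its replicate 1 or 2 gave 5. Hspb6, at 0.60 ± 0.13 (adjusted p = 0.00214), and Cct4, at −0.53 ± 0.11 (adjusted p = 0.00145), held under all alternatives, and were 0.68 and −0.61 without that array. Cct4 had changed by 0.16 ± 0.08 in the step from 300 and by −0.37 ± 0.08 in the step from 600. The 2 steps differ in the cells' earlier medium as well as in the osmolality reached, and these cannot be told apart.

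**Figure D5:**
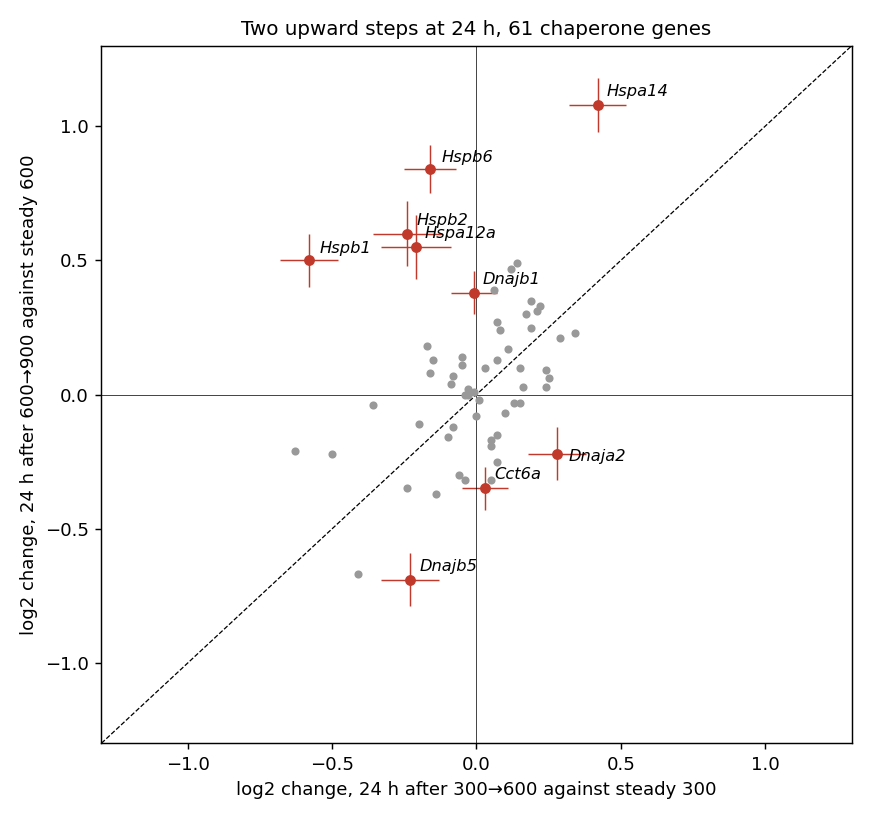
Log2 change of the 61 chaperone genes at 24 h after the step from 300 to 600 (horizontal) and after the step from 600 to 900 (vertical). Red points with bars of 1 standard error are the 9 genes that differ between the steps, and the dashed line marks equal change; Hspb1, Hspb6, Hspb2, Hspa12a and Hspa14 lie above it and Dnaja2 below.

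Other genes of the chaperone system were followed as a list of 52 measured genes, named with the members' earlier results known. The list held co-chaperones and heat shock factors, but also chaperones. Among these were the 8 genes that the symbol rule left out and further chaperones of the endoplasmic reticulum. In steady 900 against steady 300, 11 of them rose and 16 fell, with a median log2 change of −0.06, while 20.2% of all genes rose and 22.3% fell. On return against steady 900, 19 rose and 8 fell, with a median of 0.12 against −0.02 for all genes, of which 19.3% rose and 18.5% fell. At 3 h after 300 to 600, 7 rose and 20 fell, against 12.1% and 29.5% of all genes. The split of the 61 members at that time depended on the scaling, and that of the list was not computed under other scalings. Within the list, Hsph1 (HSP110), the nucleotide exchange factor of cytosolic HSP70, rose by 1.91 ± 0.08 in steady 900 and by 1.64 ± 0.08 at 12 h after 300 to 600. Hsf1, the heat shock factor, changed by 0.34 ± 0.11 at 12 h and by 0.16 ± 0.11 in steady 900, of which the second was not called. Tcp1, the CCT subunit whose symbol lies outside the rule, rose by 0.41 ± 0.07 on return, as Cct4, Cct5, Cct6a and Cct8 did. Grpel1, the exchange factor of Hspa9, was 0.50 ± 0.10 above steady 300 after return, where Hspd1, Hspe1, Hspa9 and Dnaja3 were higher too. The mitochondrial member Dnajc30 had means of 7.14 in steady 300 and 7.22 after return. Of the 5 mitochondrial genes in the list, 2 rose and 0 fell in that comparison, with a median of 0.05. Trap1 had means of 9.25 in steady 300 and 9.18 after return, and Clpx 7.66 in both. Of all genes 20.4% rose and 22.2% fell there. Chordc1, an HSP90 co-chaperone, rose by 0.61 ± 0.10 at 12 h after 300 to 600 and by 0.75 ± 0.10 on return.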

How the data were processed

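Total RNA of 30 rat collecting duct samples was hybridised to Affymetrix Rat Gene arrays, 1 per sample. The authors deposited log2 values made by RMA (robust multi-array averaging), according to the submitters' processing notes. Its version and the build behind the array are not given in those notes as used here. Of 29170 probe sets, 15310 carried a single symbol, and a gene with several of these was represented by the brightest on average, leaving 14506 genes. A probe set shared by Hspa1a, Hspa1b and Hspa1l was not used. All 61 chaperone genes matched the GRCr8 gene table by Entrez identifier.

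Groups of 3 came from the sample titles. The comparisons used limma (version 3.58.1, under R 4.3.3), which fitted a mean for each group to the 30 arrays and moderated the variances (eBayes). Benjamini-Hochberg adjustment ran over all 14506 genes, with a threshold of 0.05. Data of 14506 genes were simulated from the steady 300 means with independent noise, and log2 changes were added in the steady 600 arrays. Of 100 genes changed by 0.5 in either direction 74% were recovered, and of 100 changed by 1, 100%, with 9 false calls. The simulation held few changed genes and no shifts in scale between arrays, so these rates may not hold for the real comparisons. The number of arrays limits precision. No label says that replicates are separate animals or cultures, so the p-values cover the spread of these samples alone, and it may be technical.

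Members, lists, tests and alternatives were chosen with earlier results of these data known. Any member could be named. In each comparison with a steady control, up to 5 higher and 5 lower members were named by the largest called change without overlap of the groups, and Hspa8, Hspa9, Hsp90aa1, Hsp90ab1, Hspb1, Hspd1, Hspe1, Dnaja1, Dnajb1, Cct2 and Cct5 always were; all 30 values are given for the 8 with the widest range of group means. Alternatives were quantile normalization, median centring, cyclic loess, a filter at the 30th percentile of the mean, averaging the probe sets of each gene, array weights, trended and robust variance, a replicate block, a fit on the compared arrays alone, and leaving out each array in turn.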

Additional observations from a re-analysis of the deposited data

Results flagged for a closer look

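At 24 h after the upward steps, 9 members changed differently in the step from 600 to 900 than in the step from 300 to 600 by the limma test of the difference itself (adjusted p below 0.05, 3 arrays per group). The differences were 1.09 for Hspb1, 1.00 for Hspb6, 0.85 for Hspb2, 0.75 for Hspa12a, 0.66 for Hspa14, 0.39 for Dnajb1, −0.50 for Dnaja2, −0.46 for Dnajb5 and −0.38 for Cct6a on the log2 scale. Those of Hspb1, Hspb6, Hspb2, Hspa12a, Hspa14 and Dnaja2 passed under all alternatives. Those of Dnajb1 and Dnajb5 lost their call in fits without 1 array (0.31 to 0.36 and −0.45 to −0.39), and that of Cct6a in such fits (−0.39 to −0.33) and under cyclic loess (−0.32).

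At 12 h, 9 members differed between the steps in the same test. The differences were 0.60 for Hspb6, 0.49 for Hspa12b, 0.49 for Dnajc22, 0.47 for Dnajc21, 0.44 for Hspa14, −0.53 for Cct4, −0.48 for Cct8, −0.44 for Cct5 and −0.43 for Hspe1. Hspb6 and Cct4 passed under all alternatives, while Cct5 was lost under cyclic loess (−0.27) and Hspe1 under quantile normalization (−0.38), cyclic loess (−0.30) and the fit on the compared arrays alone (−0.43). Dnajc21 was lost without steady 300 replicate 1 (0.39) or steady 600 replicate 3 (0.39). Hspa14, Hspa12b, Dnajc22 and Cct8 lost their calls in fits without 1 array (0.40 to 0.47, 0.38 to 0.51, 0.38 to 0.45, and −0.41 to −0.38). Hspa14 and Hspa12b were also lost under median centring (0.43 and 0.47), Hspa12b, Dnajc22 and Cct8 in the fit on the compared arrays alone (0.49, 0.49 and −0.48), and Cct8 under cyclic loess (−0.32).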

How the results depend on the processing

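Of 261 called values over 15 comparisons, 163 passed under every alternative run, and 98 lost their call under at least 1. Each called value was refitted without each array of its groups in turn, and 309 of these 1674 values lost their call. By setting, 31 calls were lost and 3 turned under cyclic loess, 28 lost and 2 turned under quantile normalization, and 30 lost under median centring, 27 in the fit on the compared arrays alone, 4 with array weights and 1 with trended and robust variance, and averaging the probe sets of each gene lost none. The filter on dim genes left 245 called values, of which none was lost; dim members such as Dnajc5b, Cct6b, Hspb7 and Dnajb13 have no value there.

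Signs turned at 3 h after 300 to 600 for Cct7 (0.01 after quantile normalization, 0.03 after cyclic loess), Dnajb12 (0.01 and 0.04) and, under cyclic loess, Cct5 (0.02), Dnaja3 (0.22) and Hsp90aa1 (0.17). At 12 h after 600 to 900 cyclic loess turned Hsp90aa1 (0.23), Hsp90ab1 (0.20) and Hspa8 (0.16). The cause was not tested.

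Counts of called members moved by over 1.5 times as follows, and the cause was not tested. Array weights gave 27 in place of 16 in steady 600 against steady 300, 19 in place of 12 in steady 900 against steady 600, 24 in place of 10 at 24 h and 24 in place of 11 at 48 h after 300 to 600, 14 in place of 7 at 24 h at 900 against steady 900, and 20 and 18 in place of 9 for the difference between the steps at 12 h and 24 h. Median centring gave 37 in place of 20 at 12 h and 18 in place of 10 at 24 h after 300 to 600. The fit on the compared arrays alone, which has fewer samples, gave 19 in place of 12 in steady 900 against steady 600, 19 in place of 11 at 48 h, 14 in place of 23 at 12 h after 600 to 900 and 15 in place of 9 for the difference at 24 h. Leaving out 1 array gave 6 to 9 members at 24 h and 4 to 8 at 48 h after 300 to 600, 6 to 7 at 48 h against steady 600, and 5 to 16 and 6 to 10 for the differences at 12 h and 24 h.

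Whether replicate numbers pair the arrays is not settled. The correlation of same-numbered arrays' deviations ran from −0.099 to 0.238 and exceeded 0.1 in 3 of 34 pairs. In returned cells against steady 900, replicate 2 with 2 gave 0.238 and 9 with 3 gave 0.226. The crossed pairs 2 with 3 and 9 with 2 gave −0.219 and −0.244 there. At 12 h after 600 to 900 against steady 600, 9 with 3 gave −0.169. Replicate 9 was counted apart from 3, so a pairing of these numbers was not tested. With the replicate number as a block, 255 of the 261 called values kept their call, and counts stayed within 1.5 times, such as 16 in steady 600 and 30 in steady 900 against steady 300. Low signal limits the dim members, and 3 arrays per group limit all of them.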
